A study of Cricetulus griseus with 3 samples.

Results

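The genes described here encode the folding machinery of the cytosol and the mitochondrion, together with the peptidyl-prolyl isomerases that bind immunosuppressive drugs. They were taken by gene name from the annotation of the array. The names covered the HSP70 and HSP110 proteins (Hspa, Hsph), HSP90 (Hsp90), the J proteins (Dnaj) and the subunits of the chaperonin CCT (Cct). They also covered the mitochondrial chaperonin (Hspd), and the small heat shock proteins and proteins that bind heat shock proteins (Hspb). The FK506-binding proteins (Fkbp) and the cyclophilins named Ppia to Ppih completed the set. The genes Hspa5, Hsp90b1, Dnajb9, Dnajb11 and Dnajc3 of the endoplasmic reticulum (ER) were left out. Only spots with a single gene name were kept, which gave 105 of the 16928 spots tested and 53 of 8146 genes. A further 15 spots that carry several gene names, a member among them, were not used.

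S-1 cells are a Chinese hamster ovary (CHO) line that stably carries constructs for PS1, for NCT-GST, for APH1-a2-HA and for Flag-PEN2. The paper derives the line from the parental CHO cells by way of an intermediate line, and marks APP as overexpressed in it. S-1 cells were compared with untransfected CHO-WT cells in which γ-secretase was blocked with DAPT. S-1 cells were grown with G418 (200 µg/ml), puromycin (25 µg/ml), zeocin (250 µg/ml), hygromycin (250 µg/ml) and blasticidin (10 µg/ml) and received 0.05% DMSO for 24 h, while the CHO-WT cells, grown without these drugs, received 10 µM DAPT in 0.05% DMSO for 24 h. Each of 3 arrays received RNA from 1 culture of S-1 cells together with RNA from 1 culture of DAPT-treated CHO cells, so that all values are ratios of S-1 over DAPT-treated CHO, with S-1 RNA in Cy3 on arrays 1 and 2 and in Cy5 on array 3. Line, constructs, selection drugs and inhibitor differ together between both sides, so their effects cannot be told apart, and in RNA of whole cultures a change in the share of cells cannot be told apart from a change in RNA per cell.

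Molecular chaperones bind unfolded or partly folded proteins, and many, though not all, release them after cycles of ATP hydrolysis. HSP70 proteins are loaded by J proteins, which stimulate their ATPase, and are emptied by nucleotide exchange factors. CCT is a closed double-ring chamber in which actin and tubulin fold, and HSP60 does similar work in the mitochondrial matrix. Cyclophilins and FKBPs speed the turning of proline bonds, and some of them carry a domain that docks on HSP90. Many of these genes, though not all, are induced by heat shock factor when proteins misfold.

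No signal intensities were used, so neither the level of a transcript nor the depth behind a ratio is known, and the markers of a cell type cannot be read from a ratio. The number of arrays limits the precision. As a check of the labels, the clones of the transfected subunits Psenen and Aph1a had mean log2 ratios of 3.09 and 2.02 (adjusted p = 1.36e-04 and 1.40e-04, limma), and that of Ncstn had 0.38 (adjusted p = 0.0313). A gene passed where the adjusted p-value of limma, computed over all genes or all spots, was under 0.005, the threshold used in the study. The mean of the spots of a gene on each array is called its gene value.

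Of the 53 genes, 10 rose in S-1 cells, 1 fell and 42 did not pass. Among all genes tested, 12.4% were higher and 10.3% lower, against 18.9% and 1.89% of these 53. Of the 105 spots, 20 were higher (19.0%) and 3 lower, while among all spots 9.68% were higher and 8.52% lower. The median gene value was 0.13, and 0.01 over all genes. Of the 53 genes, 32 were above 0 on all 3 arrays (60.4%, against 37.5% of all genes) and 12 were below 0 on all 3 (22.6%, against 33.7%). The counts changed with the arrays used: without array 1, 3 genes were higher, without array 2 it was 2 genes, and without array 3, which alone has the opposite dye orientation, 19. Hspa4, Hspa14 and Fkbp9 passed without each array in turn, and Ppid missed the threshold without array 2 (adjusted p = 0.0054, limma). The other 7 genes that rose missed it both without array 1 and without array 2, with adjusted p-values from 0.0077 (Hspd1) to 0.0422 (Ppig).

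**Figure D1:**
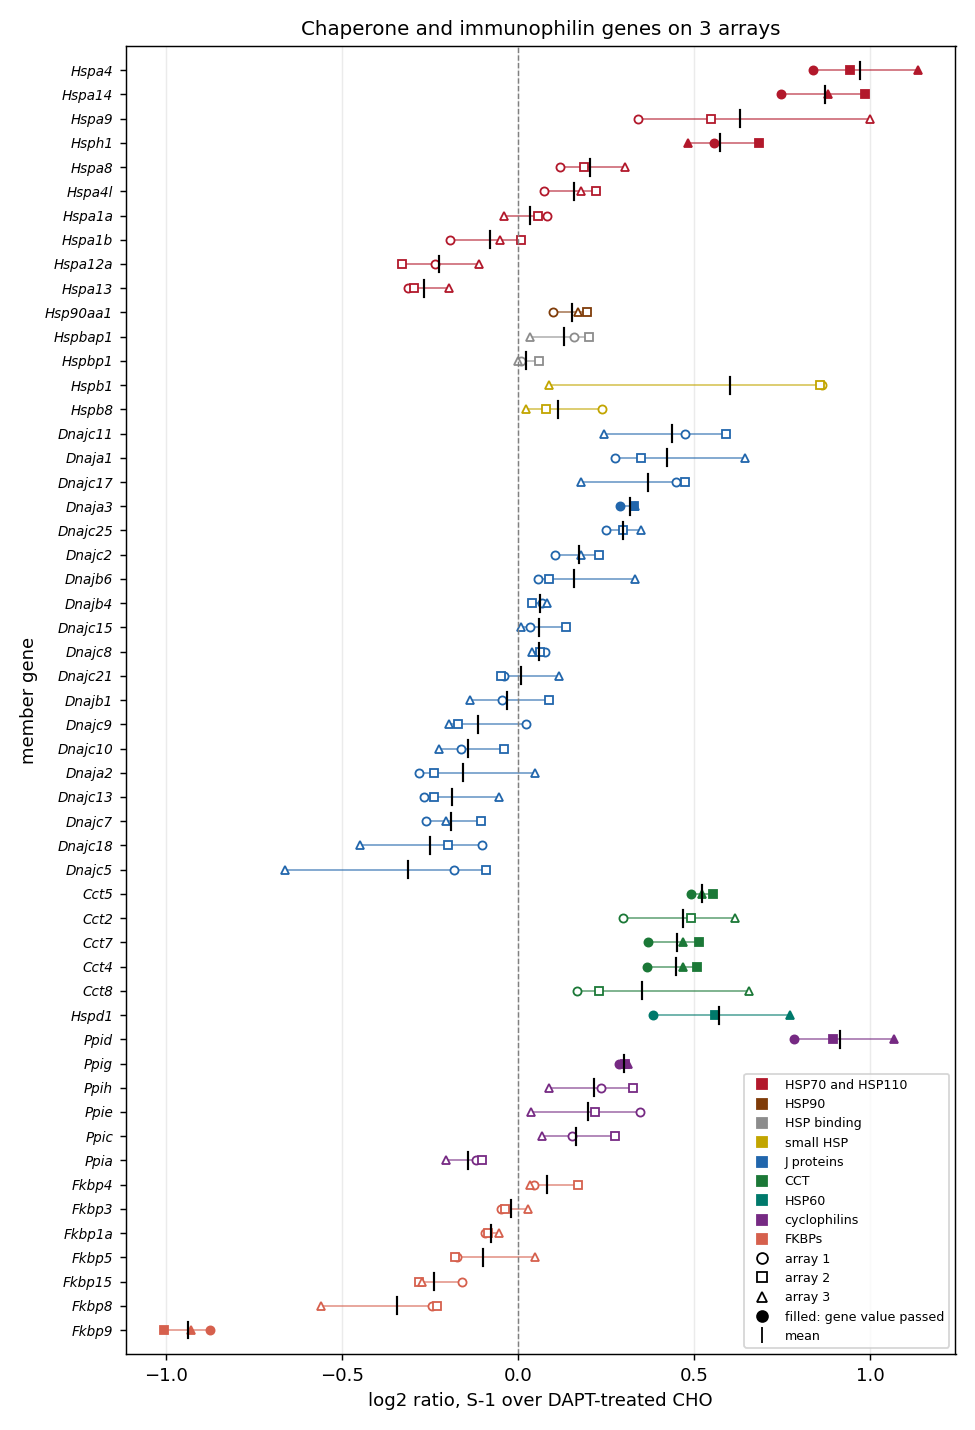
Gene values, log2(S-1 / DAPT-treated CHO), on the horizontal axis for each of the 53 member genes (vertical axis), by protein family, with 1 symbol per array, a line over the range and a black bar at the mean. Filled symbols mark the 11 genes that passed. Hspa4, Ppid and Hspa14 lie farthest to the right (means 0.97, 0.92 and 0.87) and Fkbp9 farthest to the left (−0.94).

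**Figure D2:**
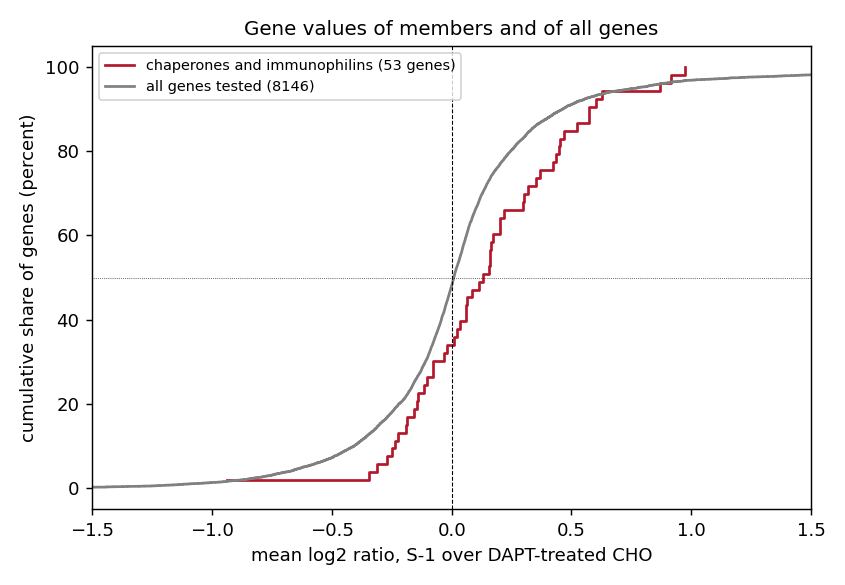
Empirical distribution of gene values for the 53 member genes and for all 8146 genes tested, with the log2 S-1 / DAPT-treated CHO ratio averaged over 3 arrays on the horizontal axis and the cumulative percent of genes on the vertical axis. Genes of the array beyond the horizontal range are not drawn. The member line crosses 50% at 0.13 and the line of all genes at 0.01.

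The HSP70 and HSP110 genes held the largest rise of the set, that of Hspa4. Of 10 genes, 3 rose (30.0%), 0 fell and 7 did not pass at the threshold, against 12.4% higher and 10.3% lower among all genes. Hspa4, an HSP110-type nucleotide exchange factor for HSP70, had log2 ratios of 0.84, 0.94 and 1.14 on arrays 1, 2 and 3. Its mean was 0.97 ± 0.15 (SD, n = 3, adjusted p = 5.64e-04, limma), a linear ratio of 1.96 on its single spot. Hspa14, the HSP70 of the ribosome-associated complex, was at 0.75, 0.99 and 0.88 (mean 0.87 ± 0.12, adjusted p = 5.18e-04), and both of its spots passed (0.81 and 0.93). All 3 arrays thus lay well above 0 for both genes.

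The other gene that rose, Hsph1, which encodes the HSP110 protein HSP105, rose to a mean of 0.57 ± 0.10 (SD, n = 3, adjusted p = 0.00133, limma), but its 3 spots disagreed. A spot of a printing position that the study's clone lists do not cover (called unlisted) was at 1.28, 1.30 and 1.30. The other spots, clones of the main collection (whose IDs begin with H), were at 0.17 and 0.26 and did not pass (adjusted p = 0.28 and 0.0108). Of the 480 unlisted spots of the array, 378 were higher in S-1 cells, with a median of 1.56. On H clones alone Hsph1 was at 0.21 and did not pass (adjusted p = 0.0574). The gene value of Hsph1 therefore rests on 1 spot. Hspa4l, a close relative of Hspa4, was at 0.07, 0.22 and 0.18 (adjusted p = 0.0518).

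Hspa8, the constitutive HSP70 of the cytosol, had the most spots of any member, 6, and they ranged from −0.20 to 0.46. A single spot passed (0.39, 0.56 and 0.43 on arrays 1, 2 and 3, adjusted p = 0.00256, limma). The gene value of 0.20 ± 0.09 did not pass (adjusted p = 0.0308). The genes of the heat-inducible HSP70, Hspa1a and Hspa1b, stood near 0, at 0.03 ± 0.06 and −0.08 ± 0.10 (SD, n = 3, adjusted p = 0.602 and 0.305), with 95% intervals of −0.09 to 0.15 and −0.22 to 0.07. Each was on 1 spot outside the H collection, and that of Hspa1a was an unlisted spot. Their transcripts are nearly identical, so that the spots may hybridise to both. Hspa12a, an atypical family member, was at −0.23 (adjusted p = 0.0285), and Hspa13, an HSP70 of the secretory pathway, at −0.27 (adjusted p = 0.00841), each below 0 on all arrays but short of the threshold.

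Hspa9 (mortalin), the HSP70 of the mitochondrial matrix, had both of its spots at 0.63, yet did not pass (adjusted p = 0.0144, limma). Its gene value was 0.34 and 0.55 on arrays 1 and 2 and 0.999 on array 3. Array 3 was thus highest, and both spots shared this order of the arrays.

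The mitochondrial chaperonin gene Hspd1 (HSP60) rose. Its gene value was 0.38, 0.56 and 0.77 on arrays 1, 2 and 3, a mean of 0.57 ± 0.20 (SD, n = 3, adjusted p = 0.0046, limma) and a linear ratio of 1.49. All 4 spots lay between 0.51 and 0.63, and in every one of them array 1 gave the lowest ratio and array 3 the highest. Only the spot at 0.51 passed by itself, and the gene value missed the threshold without array 1 (adjusted p = 0.0077) or array 2 (adjusted p = 0.0263). Dnaja3 (Tid1), the J protein partner of Hspa9, rose by 0.32 ± 0.02 (adjusted p = 0.00347), with spots at 0.56, 0.44 and −0.05, of which the first 2 passed. Dnajc11, a mitochondrial J protein tied to the cristae, had 1 spot that passed (0.53) and 1 that did not (0.34), and its gene value of 0.44 did not pass (adjusted p = 0.00851). Of the 5 members counted as mitochondrial, 2 rose and 0 fell, against 12.4% higher and 10.3% lower among all genes. All 5 were above 0 on every array (37.5% of all genes were), the lowest being Dnajc15, a mitochondrial membrane J protein, at 0.06 (adjusted p = 0.361). Fkbp8, which sits in the outer membrane, was not counted among them and was below 0 on all 3 arrays (mean −0.34, adjusted p = 0.0208).

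All 5 CCT genes of the array lay above 0 on every array, as did 37.5% of all genes tested. Of 5 genes, 3 rose and 2 did not pass, while among all genes 12.4% were higher and 10.3% lower. Cct5 was at 0.49, 0.55 and 0.52 on arrays 1, 2 and 3 (mean 0.52 ± 0.03, SD, n = 3, adjusted p = 8.27e-04, limma), and each of its 3 spots passed. Cct7 was at 0.37, 0.51 and 0.47 (mean 0.45 ± 0.07, adjusted p = 0.00188), with 3 of 4 spots past the threshold. Cct4 had the same mean of 0.45 (adjusted p = 0.00193), but its 3 spots spread from 0.07 to 0.84 and only the highest passed. Without array 1 or 2 none of the 3 passed, with adjusted p-values from 0.00788 (Cct5) to 0.0206 (Cct4). The subunit genes lay close together as gene values, at linear ratios from 1.28 to 1.44, and less close as single spots.

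The other CCT genes, Cct2 (0.30, 0.49 and 0.62) and Cct8 (0.17, 0.23 and 0.65), missed the threshold, with adjusted p-values of 0.00538 and 0.0466 (limma, gene values 0.47 and 0.35). Both were highest on array 3. All 13 CCT spots were above 0 on every array (6055 of 16928 among all spots), and 7 passed (9.68% of all spots were higher). Tcp1, the gene of the first CCT subunit, does not share the name Cct and was taken in a separate list. It rose by 0.52 ± 0.16 (n = 3, adjusted p = 0.00373), with ratios of 0.36, 0.53 and 0.67.

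Among 12 genes of CCT and its partners in that list (prefoldin, phosducin-like proteins and tubulin cofactors), 3 rose and 2 fell (median 0.18). These shares were 25.0% and 16.7%, against 12.4% and 10.3% of all genes. The prefoldin genes went both ways. Pfdn6 rose by 0.52 (adjusted p = 0.00432, limma) and Pfdn5 fell by 0.54 on the log2 scale (adjusted p = 8.82e-04); both encode subunits of the hexamer that hands unfolded actin and tubulin to CCT. Pdcl, a phosducin-like regulator, fell by 0.46 (adjusted p = 0.00304), and Pdrg1, a prefoldin-related gene, was higher at 0.38 (adjusted p = 0.00209) and was named after its value was seen.

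The J proteins were the largest family. Of 19 genes, Dnaja3 rose (5.26%), 0 fell and 18 did not pass, while among all genes 12.4% were higher and 10.3% lower. The family median was 0.06. Dnaja1, a cytosolic partner of Hspa8, was at 0.28, 0.35 and 0.65 on arrays 1, 2 and 3 (mean 0.42, adjusted p = 0.0119, limma), while Dnaja2, of the same subfamily, was at −0.28, −0.24 and 0.05. Dnajb1 (HSP40), the heat-inducible J protein, was at −0.03 ± 0.11 (SD, n = 3, adjusted p = 0.692), and its spots were at −0.18 and 0.11. The cytosolic J proteins thus lay on both sides of 0. Dnajc2, which together with Hspa14 forms the ribosome-associated complex, was at 0.11, 0.23 and 0.18 (mean 0.17, adjusted p = 0.0348), far below the ratio of Hspa14.

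Dnajc5, the cysteine string protein of secretory vesicles, had 1 spot that fell, at −0.38, −0.31 and −0.35 (adjusted p = 0.0036, limma). Its other spot was at 0.01, 0.13 and −0.98, so that the gene value of −0.31 ± 0.31 did not pass (adjusted p = 0.09). On arrays 1 and 2 the second spot thus stayed above 0. Dnajc13 (endosomal RME-8) and Dnajc7, which binds both HSP70 and HSP90, had gene values of −0.19 each (adjusted p = 0.0539 and 0.0314). Dnajc17, which takes part in splicing, was at 0.37 (adjusted p = 0.0123) and Dnajc25 at 0.30 (adjusted p = 0.00514), both above 0 on all arrays. The remaining J protein genes lay between −0.25 (Dnajc18) and 0.16 (Dnajb6).

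HSP90 and the small heat shock proteins did not pass. Hsp90aa1, the inducible cytosolic HSP90, was at 0.10, 0.19 and 0.17 on arrays 1, 2 and 3, with a mean of 0.15 ± 0.05 (SD, n = 3, adjusted p = 0.0417, limma) and a 95% interval of 0.04 to 0.27. Hspb1 (HSP27) had the widest spread of all members: its single spot was at 0.86 on both arrays with S-1 RNA in Cy3 and at 0.09 on array 3 (adjusted p = 0.0377). Hspb8, the small heat shock protein that works with Bag3, was at 0.11 (adjusted p = 0.173). Of the proteins that bind heat shock proteins, Hspbp1, an exchange factor of HSP70, and Hspbap1 were at 0.02 and 0.13 (adjusted p = 0.698 and 0.0967).

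**Figure D3:**
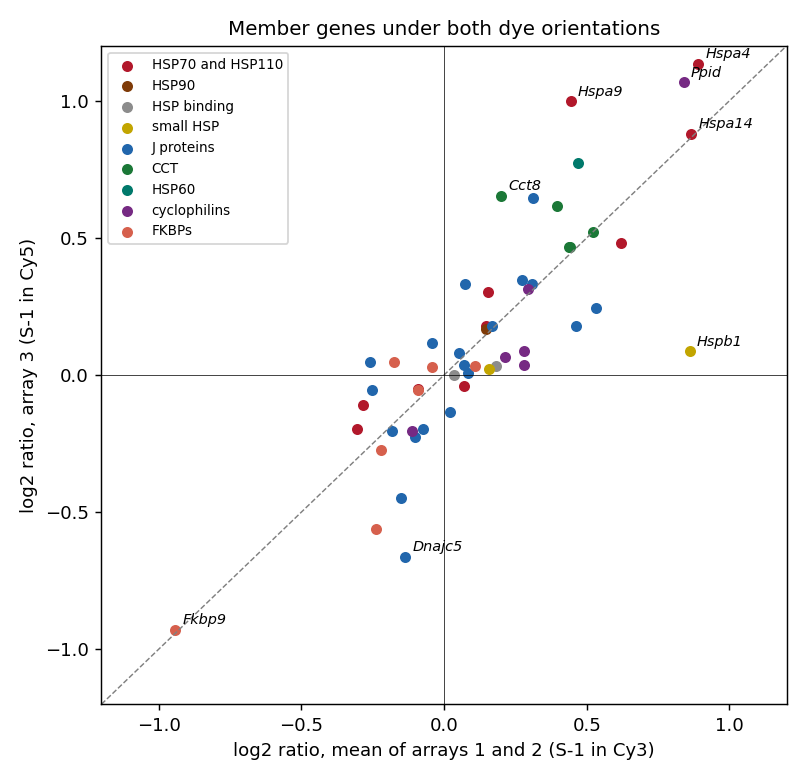
Gene values, log2(S-1 / DAPT-treated CHO), on array 3 (vertical axis, S-1 RNA in Cy5) against the mean of arrays 1 and 2 (horizontal axis, S-1 RNA in Cy3) for the 53 member genes, coloured by family, with the line of equal values. Hspa14 and Fkbp9 lie on or near the line and Hspa4 and Ppid slightly above it, whereas Hspb1 (0.86 and 0.86 against 0.09) and Dnajc5 fall well below it and Hspa9 and Cct8 well above it.

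For 8 genes, array 3 differed from the mean of arrays 1 and 2 by more than 0.3 on the log2 scale. It was above that mean for Hspa9, Cct8, Dnaja1, Dnaja2 and Hspd1, and below it for Hspb1, Dnajc5 and Fkbp8. Since array 3 is the only one with S-1 RNA in Cy5, the dye and the cultures of that array cannot be told apart. Of these 8 gene values, only that of Hspd1 passed.

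The cyclophilins held the second largest rise, that of Ppid. Of 6 genes, 2 rose (33.3%) and 0 fell, while among all genes 12.4% were higher and 10.3% lower. Ppid (cyclophilin 40), which docks on HSP90 in steroid receptor complexes, was at 0.78, 0.89 and 1.07 on its single spot, a mean of 0.92 ± 0.14 (SD, n = 3, adjusted p = 6.02e-04, limma) and a linear ratio of 1.89. The FKBPs that dock on HSP90 in the same way did not share this size. Fkbp4 (FKBP52) was at 0.05, 0.17 and 0.03 (mean 0.08, adjusted p = 0.228, 95% interval −0.04 to 0.21), and Fkbp5 (FKBP51) at −0.17, −0.18 and 0.05 (mean −0.10, adjusted p = 0.247, 95% interval −0.26 to 0.06). The intervals of both lay below that of Ppid, which ran from 0.74 to 1.09.

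Ppig, a nuclear cyclophilin with an arginine- and serine-rich tail that binds splicing proteins, rose by 0.30 ± 0.01 (SD, n = 3, adjusted p = 0.00388, limma). Its 5 spots formed separate sets. The spots at 0.53, 0.55 and 0.56 passed, and those at 0.04 and −0.17 did not. The small SD of the gene value is thus that between arrays and hides a spread of 0.73 between spots. Ppih and Ppie, cyclophilins of the spliceosome, were above 0 on all arrays at 0.22 and 0.20 (adjusted p = 0.0372 and 0.0717).

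Ppia (cyclophilin A), the abundant cytosolic target of cyclosporin, lay on the other side of 0. It was at −0.12, −0.10 and −0.20 on arrays 1, 2 and 3, a mean of −0.14 ± 0.05 (SD, n = 3, adjusted p = 0.0554, limma) that did not pass. Its 5 spots lay between −0.19 and −0.10, the narrowest spread of any member with more than 3 spots, and each was below 0 on every array. Ppic, a cyclophilin of the secretory pathway, was at 0.17 (adjusted p = 0.0654).

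The FKBPs were the only family in which a gene fell, 1 of 7 (14.3%), against 10.3% lower among all genes. Fkbp9, a multidomain isomerase of the ER lumen, had gene values of −0.87, −1.01 and −0.93 on arrays 1, 2 and 3. Its mean of −0.94 ± 0.07 (SD, n = 3, adjusted p = 2.13e-04, limma) corresponds to a linear ratio of 0.522, and both of its spots passed (−0.98 and −0.89). The other 6 FKBP genes did not pass. Fkbp8, an anti-apoptotic FKBP of the mitochondrial outer membrane, was at −0.24, −0.23 and −0.56 (adjusted p = 0.0208), and Fkbp15 at −0.24 (adjusted p = 0.0135). Fkbp1a (FKBP12), through which FK506 and rapamycin act, and the nuclear Fkbp3 were near 0, at −0.08 and −0.02 (adjusted p = 0.189 and 0.746).

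Despite the names taken, 5 of the 53 genes encode proteins of the ER or secretory pathway: Fkbp9, Hspa13, Dnajc10, Dnajc25 and Ppic. Of these, Fkbp9 fell and 0 rose (median −0.14). Of the 43 genes of the cytosol, the nucleus or other places, 8 rose (18.6%) and 0 fell (median 0.11). Among all genes tested, 12.4% were higher and 10.3% lower. The 5 genes counted as mitochondrial had a median of 0.44. Fkbp8 of the mitochondrial outer membrane, at −0.34, was counted with the 43. The ER genes that were left out also lay mostly below 0, except for the gene value of Hspa5. Dnajc3, Hsp90b1 and Dnajb11 fell, at −0.58, −0.39 and −0.31 (adjusted p = 9.08e-04, 0.00348 and 0.00386, limma), and Dnajb9 was at −0.03. Hspa5 passed in opposite directions by the spots used. Its gene value over all 6 spots, which reached 4.16, was higher at 0.83 (adjusted p = 7.34e-04, limma). On its 4 H clones alone it was lower at −0.78 (adjusted p = 6.00e-04, limma). The difference between compartments was not tested.

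Of 19 co-chaperone genes outside the name rule, which help HSP90 and HSP70, 2 rose (10.5%), 2 fell (10.5%) and 15 did not pass (median 0.03). Both shares were near those of all genes (12.4% higher and 10.3% lower). Chordc1, an HSP90 partner, was at 0.81, 0.97 and 1.002 on arrays 1, 2 and 3 (mean 0.93 ± 0.10, SD, n = 3, adjusted p = 3.48e-04, limma), close in size to Hspa4 and Ppid. Ahsa1, the activator of the HSP90 ATPase, rose by 0.46 ± 0.09 (adjusted p = 0.00208). Unc45a, which helps HSP90 to fold myosin, fell by 0.83 ± 0.14 on the log2 scale (adjusted p = 8.20e-04), and Bag6 fell by 0.29 (adjusted p = 0.00497). Stip1 (HOP), which links HSP70 to HSP90, was at 0.24 (adjusted p = 0.0102), and Stub1 (CHIP), a ubiquitin ligase bound to both, at 0.07 (adjusted p = 0.518).

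In the list of mitochondrial import and quality control, 2 of 14 genes rose (14.3%) and 0 fell (median 0.03). Among all genes, 12.4% were higher and 10.3% lower. Grpel1, the nucleotide exchange factor of Hspa9, was at 0.39, 0.31 and 0.39 (adjusted p = 0.00262, limma), and the matrix protease gene Clpp at 0.72, 0.83 and 0.41 (adjusted p = 0.00388). Trap1, the mitochondrial HSP90, was at 0.33 and did not pass (adjusted p = 0.00707), and Lonp1, another matrix protease, was at −0.09. Of 6 genes of other isomerases, 2 rose and 0 fell (median 0.16): Ppil4, a nuclear cyclophilin, at 0.63 (adjusted p = 7.34e-04) and Pin4, a parvulin, at 0.59 (adjusted p = 0.00445). Of 5 genes listed for heat shock factor and its regulator, Hsf5 alone had a gene value, 0.00.

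How far the spots of a gene agreed could be seen for the 30 genes with more than 1 spot. Their spots differed by a median of 0.17 on the log2 scale (0.22 for the 2877 such genes of the array), and all spots had the same sign in 22 of 30 genes (1671 of 2877). The widest ranges were those of Hsph1 (1.12), Cct4 (0.77), Ppig (0.73), Hspa8 (0.66) and Dnaja3 (0.61). In each of these genes the range exceeded the gene value itself. Of the 105 spots, 102 were H clones, and 19 of these were higher and 3 lower. Among all H clones, 6.76% were higher and 8.52% lower. Apart from Hsph1, all genes that rose or fell were measured by H clones alone.

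**Figure D4:**
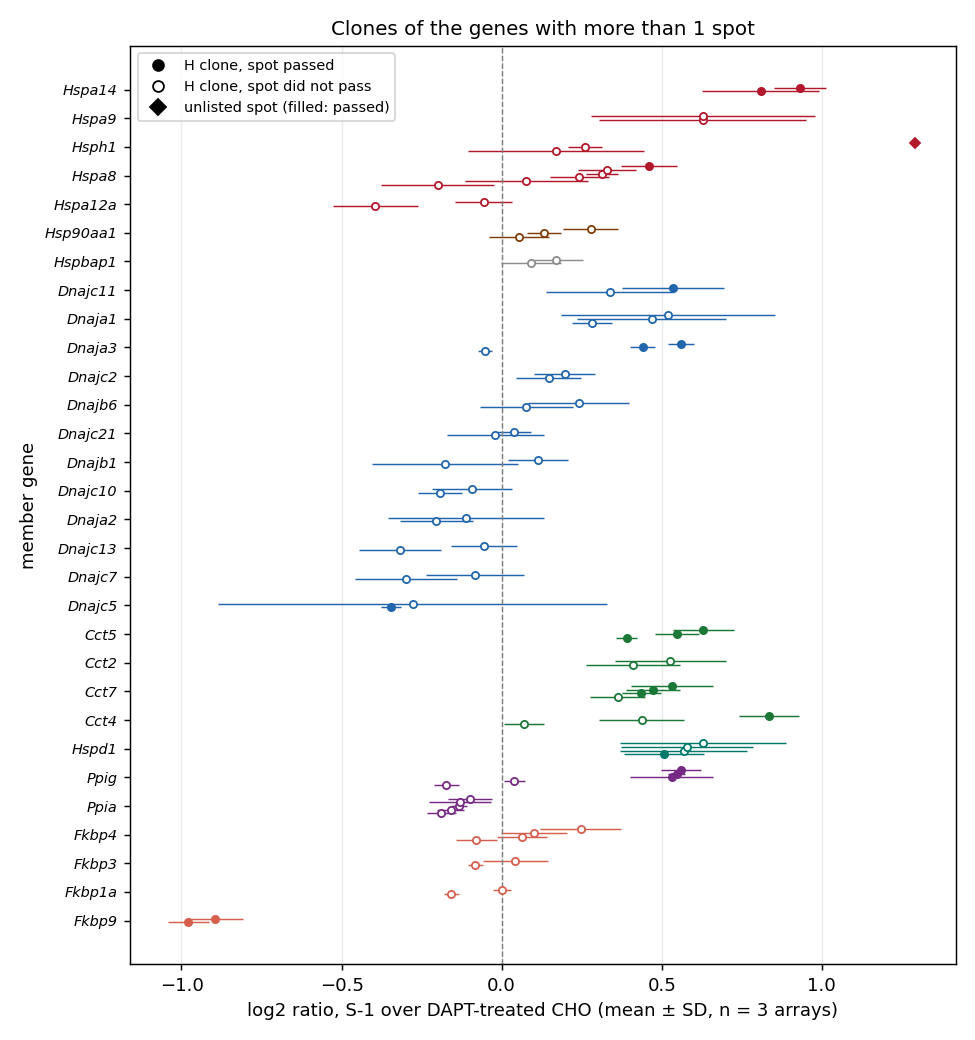
Mean log2(S-1 / DAPT-treated CHO) of each spot (horizontal axis, with SD over 3 arrays) for the 30 member genes with more than 1 spot (vertical axis). Circles are H clones, diamonds unlisted spots, and filled symbols passed. The unlisted spot of Hsph1 lies at 1.29 against 0.17 and 0.26 for its H clones, the Ppig spots lie at 0.53 to 0.56 and at −0.17 and 0.04, and both Fkbp9 spots lie below −0.8.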

How the data were processed

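The values were log2 ratios on 3 spotted mouse cDNA arrays, deposited by the authors after lowess normalization within print-tip groups without background subtraction, in R and Bioconductor, with limma for the tests. They were already oriented as S-1 over DAPT-treated CHO: over the tested spots the arrays correlated at r = 0.962, 0.878 and 0.892 (arrays 1 and 2, 1 and 3, 2 and 3; across spots, which are not independent). Array medians were 0.02, 0.01 and 0.00 and SDs 0.464, 0.504 and 0.525. Hamster RNA was hybridised to mouse clones, so a ratio can be altered in either direction by mismatched sequence or by related transcripts. Intensities were not used here.

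The 736 control spots (23 positions in each of 32 blocks), which carry no gene name and ran opposite on array 3 (r = −0.96 between arrays 1 and 3), were left out, and 16928 spots were tested. Of these, 12563 carry a single gene symbol in the platform annotation, 412 several and 3953 none; 49 of the 53 member symbols are also in the hamster RefSeq gene table of CriGri-PICRH-1.0. Collections were assigned by printing position. Of the 2658 clones in the study's lists, 2431 were paired to a spot by their fold alone (tolerance 1e-05). The listed folds are larger in size than the linear ratios given here by a constant factor, which was applied before pairing. Of the paired clones, 2430 had the letter of their position (15360 H, 960 P and 128 N spots, 480 unlisted).

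An intercept was fitted with lmFit and eBayes in limma 3.58.1 (R 4.3.3), per spot and per gene (mean of the spots of 1 symbol), with Benjamini-Hochberg adjustment over all 16928 spots or 8146 genes and a threshold of 0.005. Intervals are 95%, from the moderated variance (prior df 3.05 for spots and 2.96 for genes). The fits were tested on simulated data. The arrays came from separate experiments, and each ratio already pairs the cultures of an array. Tables and plots used Python 3.11.15 with Matplotlib 3.10.9, pandas 2.3.3, NumPy 2.4.6 and SciPy 1.17.1. Named in full were the members that passed by gene value or by a spot (14 genes) and up to 3 others per family with the most spots, with up to 4 passing genes of each related list. Other genes were named after their values were seen. The members and lists were chosen with earlier results of these data known. Alternatives were a threshold of 0.05, centring, scaling or quantile normalization of the arrays, a dye term, array weights, control spots included, H clones alone, medians over spots, leaving out each array and, added after seeing the data, leaving out unlisted spots.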

Additional observations from a re-analysis of the deposited data

How the results depend on the processing

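Against 20 member spots higher and 3 lower, and 10 genes higher and 1 lower, a dye term gave 44 and 14 spots and 20 and 7 genes, array weights 41 and 7 spots and 18 and 5 genes, and a threshold of 0.05 gave 44 and 15 spots and 22 and 6 genes. With the control spots included, 8 spots were higher and 2 lower. Leaving out 1 array gave 1 to 44 spots higher and 0 to 11 lower, and 2 to 19 genes higher and 1 to 6 lower; without array 1 it was 6 and 2 spots and 3 and 1 genes, without array 2 it was 1 and 0 spots and 2 and 1 genes, and without array 3 it was 44 and 11 spots and 19 and 6 genes. Without array 3 the dye cannot be told apart from the difference between the cells. In the dye fit, array 3 alone gives its orientation, and the only residual degree of freedom comes from arrays 1 and 2, so its p-values leave out the spread of array 3. The cause of these shifts was not tested. Hspa4, Hspa14 and Fkbp9 passed without each array, and Ppid without array 1 or 3. Without array 1, 7 of the 11 genes that had passed by gene value lost their call, and without array 2 it was 8. Centring, scaling, quantile normalization, medians over spots, H clones alone and leaving out unlisted spots kept the counts within 1.5 times, but Hsph1 lost its call on H clones alone, without unlisted spots and with medians over spots (0.30, adjusted p = 0.0131, limma), and Hspd1 with centred arrays (adjusted p = 0.0052). None of the 14 members that passed by gene value or by a spot changed sign under any alternative run. Dnajb1, which did not pass, went from −0.03 to 0.02 without array 3. No further pairing was fitted, because each ratio already sets 1 S-1 culture against 1 DAPT-treated CHO culture. Signal over background was not used here, so how far dim spots limit these ratios is unknown.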

Other observations

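The names of some member clones depend on the annotation used. Of the clones in the study's lists of changed genes, 22 carry the name of a chaperone or immunophilin of the kinds described here, and 18 of these have the same name in the platform annotation. Of the other 4, 1 carries several gene names there, so its value is not assigned to a gene, although it was higher in S-1 cells (0.64, adjusted p = 0.00106, limma). All 22 were listed because they were called on these arrays, so their values are a description. A pair of clones listed as Ppia are annotated as Dnttip2, whose protein binds terminal deoxynucleotidyltransferase, and were higher in S-1 cells, at 0.91 ± 0.10 and 0.75 ± 0.09 (SD, n = 3, adjusted p = 4.04e-04 and 6.21e-04, limma). The 5 spots annotated as Ppia were between −0.19 and −0.10, all below 0 on every array. The direction given for cyclophilin A thus depends on which name is used for those clones. Their sequences were not examined.

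A clone listed as Fkbp10, the gene of an FKBP of the ER that acts on collagen, has no gene name in the annotation used here. It was at −0.81, −0.96 and −1.22 on arrays 1, 2 and 3, a mean of −0.997 ± 0.21 (SD, n = 3, adjusted p = 0.00114, limma), beside a mean of −0.94 for Fkbp9. It was chosen after its value was seen.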
